A study of Homo sapiens with 6 samples.

Results

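The genes described here sense oxygen through the hypoxia-inducible factor (HIF) pathway or answer to it, and were taken by name as a list of 10: HIF1A, EPAS1, VHL, EGLN1, EGLN3, CA9, VEGFA, ADM, NDRG1 and BNIP3. All 10 were found among the 67140 gene identifiers measured, and 9 of them were among the 19254 that passed a filter on low counts. Their transcripts were read by RNA sequencing in KYSE150 cells, a line established from an esophageal squamous cell carcinoma, to ask what changes when the long noncoding RNA AC007128.1 is targeted. There were 3 samples of cells carrying the control hairpin, shCtrl, and 3 of cells carrying a hairpin against AC007128.1, shAC007128.1. Both kinds of cells grew in RPMI-1640 medium with fetal bovine serum, and the study's methods describe stable lines made with lentivirus and puromycin. Each group stands for 1 hairpin, so an effect of AC007128.1 cannot be told apart from another effect of the hairpin or from a difference between the lines. The labels name no exposure to low oxygen and no separate cultures behind the replicates, so the p-values measure only the spread between these samples, which may be technical. The libraries of shCtrl replicates 1, 2 and 3 summed to 72354339, 78610457 and 65140326 counts, and each was larger than those of shAC007128.1 replicates 1, 2 and 3, at 57880388, 55764405 and 60158244.

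When oxygen is plentiful, the prolyl hydroxylases of the EGLN family mark the HIF alpha subunits, the VHL ubiquitin ligase recognises the mark, and the subunits are degraded. When oxygen is scarce the alpha subunits build up, join ARNT and switch on genes for pH control, blood vessel growth, survival and metabolism, several of which are active in squamous tumours. This control acts mainly on the HIF proteins, which were not measured here. HIF binds DNA at the letters ACGTG or GCGTG, so these were searched on both strands in RefSeq promoters (GRCh38.p14) reaching from 250 bases before to 50 bases after a start taken from RefSeq. That start is not always the outer end of the gene given below, which is from GENCODE: it lies inside the gene for EPAS1, EGLN3, BNIP3 and the second promoter of HIF1A. The letters ACGTG read CACGT, and GCGTG reads CACGC, when they lie on the opposite strand. Of all 35116 promoters searched, 48.4% held at least 1 such match. The table gave 8 promoters for 7 of the 10 genes. Of these 8 promoters 6 held a match, and they belonged to 6 of the 7 genes. No promoter is shown for VHL, VEGFA or NDRG1.

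The promoters of CA9 and EPAS1 are shown because their transcripts were lower in shAC007128.1 cells, and those of ADM and BNIP3 because theirs were close to the control. Capitals mark the matches, and each sequence runs 5′ to 3′ on the gene's strand. The CA9 window is chr9:35673678-35673977 on the plus strand, and the EPAS1 window is chr2:46297157-46297456 on the plus strand. The ADM window is chr11:10304823-10305122 on the plus strand, and the BNIP3 window is chr10:131981874-131982173 on the minus strand.
CA9: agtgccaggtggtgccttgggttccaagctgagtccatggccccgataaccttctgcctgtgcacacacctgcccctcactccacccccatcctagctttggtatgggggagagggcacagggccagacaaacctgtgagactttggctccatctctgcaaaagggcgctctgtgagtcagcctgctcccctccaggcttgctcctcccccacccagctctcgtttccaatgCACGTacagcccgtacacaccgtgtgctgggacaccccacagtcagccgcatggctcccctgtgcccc
EPAS1: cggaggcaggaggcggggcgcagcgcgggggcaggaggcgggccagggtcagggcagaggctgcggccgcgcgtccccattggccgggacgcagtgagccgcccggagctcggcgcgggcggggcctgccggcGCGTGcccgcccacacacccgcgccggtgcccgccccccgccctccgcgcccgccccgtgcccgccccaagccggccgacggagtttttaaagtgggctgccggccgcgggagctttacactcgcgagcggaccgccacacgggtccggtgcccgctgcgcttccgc
ADM: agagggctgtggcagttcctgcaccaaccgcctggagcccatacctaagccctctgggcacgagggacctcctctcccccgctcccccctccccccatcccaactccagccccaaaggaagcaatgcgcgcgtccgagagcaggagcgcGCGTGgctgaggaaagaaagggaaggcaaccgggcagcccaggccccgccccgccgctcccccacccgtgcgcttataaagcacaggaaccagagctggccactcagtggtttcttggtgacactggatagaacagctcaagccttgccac
BNIP3: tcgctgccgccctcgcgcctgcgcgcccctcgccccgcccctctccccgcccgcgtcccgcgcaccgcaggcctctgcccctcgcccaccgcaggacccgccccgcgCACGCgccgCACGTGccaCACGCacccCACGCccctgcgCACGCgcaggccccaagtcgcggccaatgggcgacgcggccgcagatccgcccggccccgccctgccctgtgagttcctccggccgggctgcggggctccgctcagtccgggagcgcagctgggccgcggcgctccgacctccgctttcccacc
Counting the base before the RefSeq start as -1, the single match of CA9 began at -18 and lay on the opposite strand. The single matches of EPAS1 at -117 and of ADM at -101 lay on the gene's strand. BNIP3 had 6 matches, the first at -143 and the last at -104, of which 2 overlap in CACGTG, a run that holds ACGTG on both strands. Only 2.0% of all promoters had 5 or more matches. EGLN1 had a match at -13, HIF1A had 1 at -204 in the first of its promoters and 0 in the other, and EGLN3 had 0. A match to these letters is a description and was not tested as a binding site. The genes with a match included both those that fell and those near the control.

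AC007128.1, the target of the hairpin, was read first. In shCtrl replicates 1, 2 and 3 its counts were 69, 33 and 53, and shAC007128.1 replicates 1, 2 and 3 gave 18, 37 and 15. The groups overlapped, because shAC007128.1 replicate 2 lay above shCtrl replicate 2. The log2 fold change of shAC007128.1 against shCtrl was -0.77 (standard error 0.51, 95% interval -1.96 to 0.42), with an adjusted p of 0.271 from edgeR's quasi-likelihood test. Without shAC007128.1 replicate 2 it was -1.29 (edgeR adjusted p = 0.0959), and without shCtrl replicate 1 it was -0.51 (edgeR adjusted p = 0.562). A lower level of the target was therefore not shown at this depth, and the groups are called by their labels. AC007128.1 shares exonic bases with 3 other genes, so its count is uncertain. The largest overlap, of 398 bases, was with ICA1-AS1 on its strand, which had 0 counts in every sample. Levels below are counts scaled to a common library size (CPM) with edgeR's TMM factors, where 3 counts, the smallest level taken as detectable, equal 0.0373 to 0.0546 CPM, for counting error only. Adjusted p-values are Benjamini-Hochberg values from edgeR's quasi-likelihood test over all 19254 genes. A gene was called when this value was at most 0.05 and the fold change at least 2, and was said to rise or fall when the adjusted p alone was at most 0.05.

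The samples carried the transcripts of squamous epithelium, and their levels moved with the group. All 10 of the squamous markers listed were tested, and their summed level was 2174, 2134 and 2166 CPM in shCtrl and 3728, 3382 and 2979 CPM in shAC007128.1. KRT5 was the most abundant of them, and 7 rose and 1 fell, where 21.0% of all genes tested rose and 19.8% fell. SOX2 was low in shCtrl, at 0.328 to 0.590 CPM, and at 3.89 to 5.17 CPM in shAC007128.1. Of the 6 endothelial markers 2 could be tested, and the sum over all 6 was 2.34, 2.83 and 3.23 CPM in shCtrl and 0.587, 2.02 and 1.62 CPM in shAC007128.1. VWF was the most abundant of the 6 on average, and KDR was at 0 in 5 samples. Of the 6 fibroblast markers 3 were tested, and the sums over all 6 were 15.3 to 16.1 CPM in shCtrl and 20.9 to 23.9 CPM in shAC007128.1. COL1A1 was the most abundant of these and went from a mean of 13.9 to 17.5 CPM (edgeR adjusted p = 0.0462), LUM went from 1.07 to 4.71 CPM (edgeR adjusted p = 0.00193), and PDGFRB was 3.03-fold lower (edgeR adjusted p = 0.0474). COL1A2 was at 0 in 5 samples. Of the 6 leukocyte markers 3 were tested, and over all 6 the sums were 59.4 to 68.3 CPM in shCtrl and 14.8 to 24.1 CPM in shAC007128.1. CD68 was the most abundant and shares 1765 exonic bases with another gene, whereas PTPRC, which marks all leukocytes, was at 0 in 2 samples and at most 0.164 CPM in the others. Mitochondrial genes took 10.1%, 10.2% and 9.69% of the counts in shCtrl and 7.80%, 7.68% and 9.72% in shAC007128.1. The part of these differences in the results below was not tested.

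None of the 9 genes tested rose, and most of them were lower in shAC007128.1 cells or near the control. Called lower were 2 of the 9, EPAS1 and VEGFA, where 10.1% of all genes tested were called lower. Without shCtrl replicate 1 only VEGFA was called lower, as EPAS1 was then under the limit on fold change, at -0.85 on the log2 scale. Called higher were 0 of the 9, where 5.57% of all genes were. By the adjusted p alone 5 of the 9 fell, namely EPAS1, VEGFA, CA9, NDRG1 and VHL, where 19.8% of all genes tested fell. None rose by edgeR, DESeq2 or limma-voom, where 21.0% of all genes tested rose by edgeR. At an unadjusted p under 0.05, 1 of the 9, HIF1A, was higher with each of these tools. The groups did not overlap for 6 of the 9, close to the 55.2% of all genes tested for which they did not. The median log2 fold change of the 9 was -0.46, against -0.02 over all genes tested. In bulk RNA, fewer cells making a transcript and less of it per cell cannot be told apart.

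**Figure D1:**
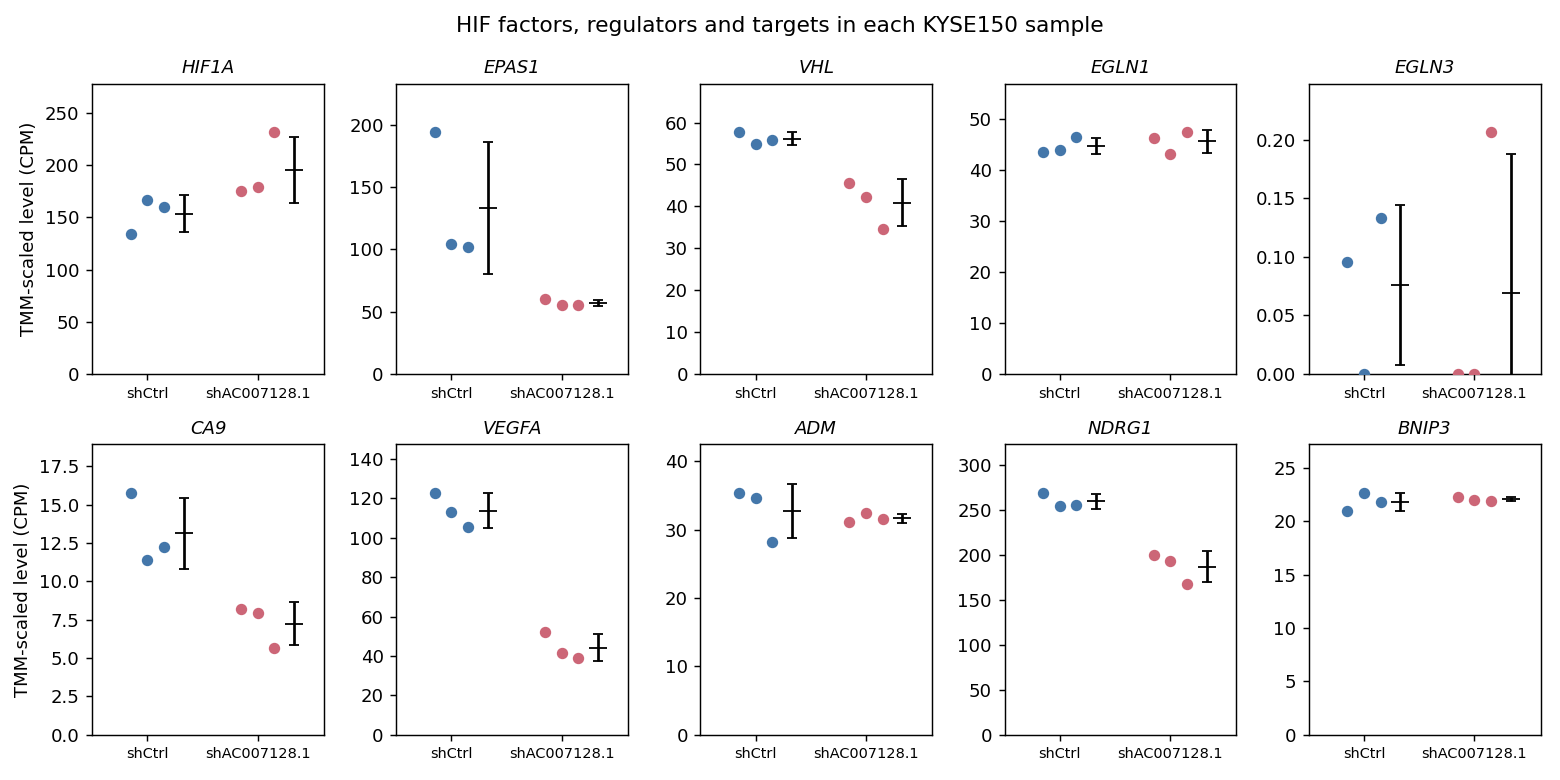
TMM-scaled level (CPM, vertical axes from 0) of each of the 10 genes in the 3 shCtrl samples (blue) and the 3 shAC007128.1 samples (red), with replicates 1 to 3 from left to right; the black mark and bar are the group mean and SD. VEGFA and NDRG1 were lower in every shAC007128.1 sample, EPAS1 was lower with shCtrl replicate 1 far above the others, and EGLN3 had at most 12 counts in any sample.

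Of the genes for the alpha subunits, EPAS1 fell and HIF1A did not pass the test. EPAS1 (ENSG00000116016, chromosome 2, 46293667 to 46386697, plus strand) encodes the HIF-2 alpha subunit, which drives a set of targets that partly overlaps that of HIF1A. Its level was 194, 104 and 102 CPM in shCtrl replicates 1, 2 and 3 and 60.1, 55.7 and 55.6 CPM in shAC007128.1 replicates 1, 2 and 3. The 3 shAC007128.1 samples lay close together below every shCtrl sample, and shCtrl replicate 1 stood far above the other shCtrl samples. EPAS1 thus went from 133 ± 52.7 CPM (SD, n = 3) to 57.1 ± 2.59 CPM (SD, n = 3). The log2 fold change was -1.22 (standard error 0.25, 95% interval -1.80 to -0.64), with an edgeR adjusted p of 0.00668. Its fall did not depend on shCtrl replicate 1, but its size did. Without that sample it was -0.85 on the log2 scale (edgeR adjusted p = 0.00182), which is under the limit for a call. Over all alternatives its adjusted p was at most 0.0264.

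HIF1A (ENSG00000100644, chromosome 14, 61695513 to 61748259, plus strand) encodes the HIF-1 alpha subunit, the one found in most cell types. It stood at 134, 167 and 160.4 CPM in shCtrl replicates 1, 2 and 3 and at 175.5, 179 and 232 CPM in shAC007128.1 replicates 1, 2 and 3. Every shAC007128.1 sample was above every shCtrl sample, but shAC007128.1 replicates 1 and 2 were only slightly above the highest control. The group levels were 154 ± 17.6 and 195 ± 31.5 CPM (SD, n = 3 each). The log2 fold change of 0.35 (standard error 0.13, 95% interval 0.03 to 0.66) did not pass after adjustment (edgeR adjusted p = 0.0763), and it was 0.20 without shAC007128.1 replicate 3 (edgeR adjusted p = 0.176). HIF1A shares 299 exonic bases with HIF1A-AS3 on the opposite strand, whose level was at most 0.428 CPM in any sample.

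Per length of the canonical transcript, the ratio of EPAS1 to HIF1A was 1.11, 0.479 and 0.485 in shCtrl replicates 1, 2 and 3 and 0.262, 0.238 and 0.184 in shAC007128.1 replicates 1, 2 and 3. In 5 of the 6 samples HIF1A was thus the more abundant transcript, and the ratio was lower in every shAC007128.1 sample. A two-sided exact permutation test of the log2 ratio gave p = 0.1, the smallest that 3 samples against 3 allow. EPAS1 was lower and HIF1A higher in every shAC007128.1 sample, so the ratio had to separate the groups. The test therefore adds nothing to the values of each gene. Among the partners of the alpha subunits, ARNT, the shared beta subunit, had a log2 fold change of -0.19 (edgeR adjusted p = 0.271). CREBBP, a coactivator that HIF recruits, was at 65.5 to 67.1 CPM in shCtrl and at 84.1 to 93.6 CPM in shAC007128.1, a log2 fold change of 0.42 (edgeR adjusted p = 0.00405). Of the 6 HIF subunits and coactivators tested of 7 listed, 1 rose, CREBBP, and 1 fell, EPAS1. Of all genes tested 21.0% rose and 19.8% fell. HIF3A, a further alpha subunit, had 0 counts in 4 of the 6 samples and at most 12 in the others, and was not tested.

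**Figure D2:**
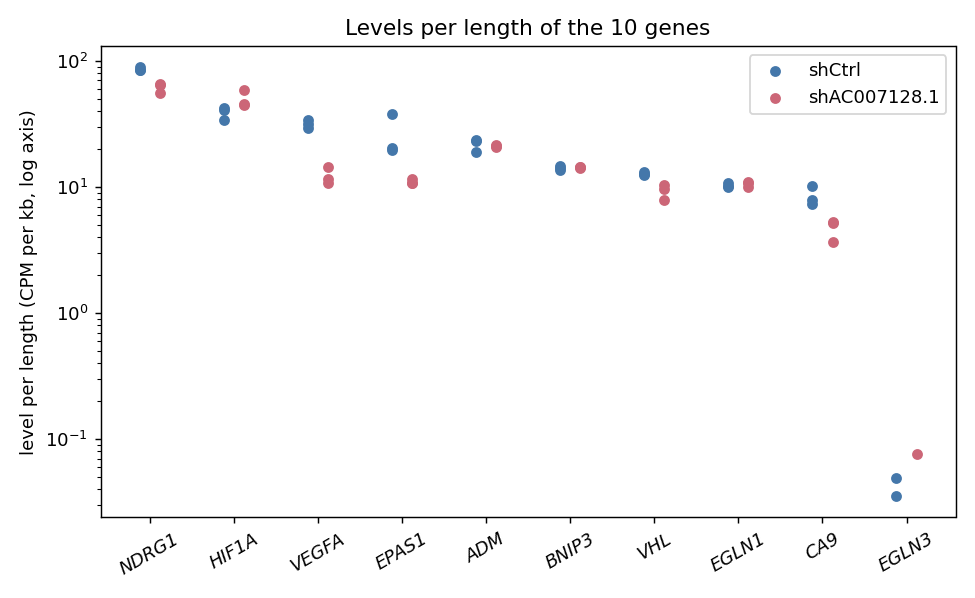
Level per length (CPM per kb of the canonical transcript, log axis) of the 10 genes in the 3 shCtrl samples (blue) and the 3 shAC007128.1 samples (red), in order of the shCtrl mean; each point is 1 sample, and samples at 0 cannot be drawn. NDRG1 and HIF1A led in both groups, VEGFA and EPAS1 stood below ADM in shAC007128.1 cells, and EGLN3 was far below the rest.

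The order of levels differed between the groups. Per length, NDRG1 led in shCtrl cells at 85.8 ± 2.72 CPM per kb (SD, n = 3), followed by HIF1A at 38.9 ± 4.45, VEGFA at 31.5 ± 2.40, EPAS1 at 25.9 ± 10.2 and ADM at 22.0 ± 2.64. BNIP3 at 14.1, VHL at 12.7, EGLN1 at 10.3 and CA9 at 8.50 CPM per kb came next. Of these neighbours, HIF1A and VEGFA overlapped in range, as did VEGFA and EPAS1, EPAS1 and ADM, and EGLN1 and CA9, so their order is uncertain. In shAC007128.1 cells NDRG1 at 61.8 ± 5.62 and HIF1A at 49.5 ± 7.98 CPM per kb (SD, n = 3 each) overlapped. ADM at 21.2 and BNIP3 at 14.3 CPM per kb followed, and then VEGFA at 12.3, EPAS1 at 11.1, EGLN1 at 10.5, VHL at 9.25 and CA9 at 4.69. BNIP3 overlapped VEGFA, VEGFA overlapped EPAS1, EPAS1 overlapped EGLN1, and EGLN1 overlapped VHL. VEGFA had therefore gone from above ADM to below it, and EPAS1 from above BNIP3 to below it, in every sample of each group.

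Of the oxygen-sensing hydroxylases, the main one kept a level near the control. EGLN1 (ENSG00000135766, chromosome 1, 231363751 to 231422287, minus strand) encodes the prolyl hydroxylase that sets HIF levels in most cells. It read 43.7, 43.9 and 46.5 CPM in shCtrl replicates 1, 2 and 3 and 46.4, 43.2 and 47.5 CPM in shAC007128.1 replicates 1, 2 and 3. The groups overlapped fully, with the lowest and the highest of the 6 samples both in shAC007128.1. The log2 fold change was 0.03 (standard error 0.08, 95% interval -0.16 to 0.22, edgeR adjusted p = 0.783), so a change of 2-fold lies outside the interval, and its sign changed with the scaling. EGLN1 shares 3004 exonic bases with another gene on its strand, which had at most 5 counts in any sample.

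EGLN3 (ENSG00000129521, chromosome 14, 33924227 to 34462774, minus strand), a prolyl hydroxylase that HIF itself induces in many cells, was hardly read. Its counts were 7, 0 and 9 in shCtrl replicates 1, 2 and 3 and 0, 0 and 12 in shAC007128.1 replicates 1, 2 and 3. With 0 counts in 3 of the 6 samples it did not pass the filter, and a difference was not detectable at this depth. The other hydroxylases were split. EGLN2, the third prolyl hydroxylase of the family, rose from 10.3, 10.3 and 11.1 to 19.1, 19.2 and 17.0 CPM, a log2 fold change of 0.80 (edgeR adjusted p = 0.00121). It shares 2012 exonic bases with the read-through gene RAB4B-EGLN2, whose counts varied from 94 to 1275 between samples, so its level is uncertain. P4HTM, a membrane-bound prolyl hydroxylase, fell from 21.5, 23.6 and 21.0 to 11.9, 12.4 and 13.4 CPM, a log2 fold change of -0.81 (edgeR adjusted p = 0.00103). HIF1AN, which hydroxylates an asparagine and blocks coactivator binding, had a log2 fold change of -0.06 (edgeR adjusted p = 0.517). Of the 4 hydroxylases tested of 5 listed, 1 rose and 1 fell, near the 21.0% and 19.8% of all genes tested. Called were 0 in either direction by edgeR, DESeq2 or limma-voom, where edgeR called 5.57% of all genes higher and 10.1% lower, and 1 each way had an unadjusted p under 0.05.

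VHL fell, and none of the other 4 subunits of its ligase did. VHL (ENSG00000134086, chromosome 3, 10141778 to 10153667, plus strand) encodes the part of the ligase that recognises hydroxylated HIF alpha. Its level was 57.7, 54.9 and 55.95 CPM in shCtrl replicates 1, 2 and 3 and 45.6, 42.2 and 34.7 CPM in shAC007128.1 replicates 1, 2 and 3. The shCtrl samples were tight and the shAC007128.1 samples were lower and more spread, without overlap. VHL fell by 0.46 on the log2 scale (standard error 0.11, edgeR adjusted p = 0.0150), from 56.2 ± 1.45 to 40.8 ± 5.60 CPM (SD, n = 3 each). Its 95% interval was -0.73 to -0.20, and without shCtrl replicate 1 the adjusted p was 0.0548 at a log2 fold change of -0.44. It shares 1173 exonic bases with ENSG00000287086 on the opposite strand, which was at 2.65 to 3.13 CPM in shCtrl and at 1.08 to 2.48 CPM in shAC007128.1 (edgeR adjusted p = 0.179), so the count of VHL is uncertain.

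Of these other subunits, only RBX1 rose in every alternative. RBX1, the RING subunit, was at 20.3, 19.4 and 18.5 CPM in shCtrl and at 35.4, 29.7 and 35.8 CPM in shAC007128.1, a log2 fold change of 0.79 (edgeR adjusted p = 0.00114). The scaffold CUL2 had a log2 fold change of 0.41 (edgeR adjusted p = 0.0407) and the adaptor ELOB of 0.40 (edgeR adjusted p = 0.0260). Both passed narrowly: leaving out any 1 of shCtrl replicates 2 and 3 and shAC007128.1 replicates 1 and 2 took the adjusted p of each past 0.05, as leaving out shAC007128.1 replicate 3 did for CUL2. Scaling by library size only and omitting the filter did so for both, and the replicate block did so for CUL2 (edgeR adjusted p = 0.0638). In all alternatives the log2 fold changes stayed above 0, from 0.30 to 0.53 for CUL2 and from 0.30 to 0.49 for ELOB. The highest adjusted p over the alternatives was 0.144 for CUL2 and 0.0967 for ELOB, which also shares 407 exonic bases with SRRM2. The adaptor ELOC had a log2 fold change of 0.09 (edgeR adjusted p = 0.642) in overlapping groups. Of the 5 ligase genes, 3 rose and 1 fell, where 21.0% and 19.8% of all genes tested did, and 2 of these 3 passed only narrowly. Their median log2 fold change was 0.40.

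Among other regulators of HIF, the direction was mixed. The ubiquitin ligase SIAH1, which acts on EGLN proteins, fell by 0.52 on the log2 scale (edgeR adjusted p = 0.00446), and it shares 1793 exonic bases with LONP2. RACK1, a scaffold that promotes HIF1A turnover without oxygen sensing, fell from 847, 846 and 829 to 569.9, 544 and 531 CPM, a log2 fold change of -0.62 (edgeR adjusted p = 0.000179). LIMD1, which brings EGLN1 and VHL together, had a log2 fold change of 0.43 (edgeR adjusted p = 0.00361) and shares 3150 exonic bases with LIMD1-AS1. Over all 21 regulators tested of 23 listed, which include HIF1A, EPAS1, EGLN1 and VHL, 6 rose and 6 fell, or 28.6% each way, not far from the 21.0% and 19.8% of all genes tested. Called lower was 1, EPAS1, where 10.1% of all genes were, and 0 without shCtrl replicate 1. Called higher were 0 by edgeR, DESeq2 or limma-voom, although 7 were higher at an unadjusted p under 0.05 by edgeR. The median log2 fold change of the regulators was 0.04, near that of all genes tested.

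**Figure D3:**
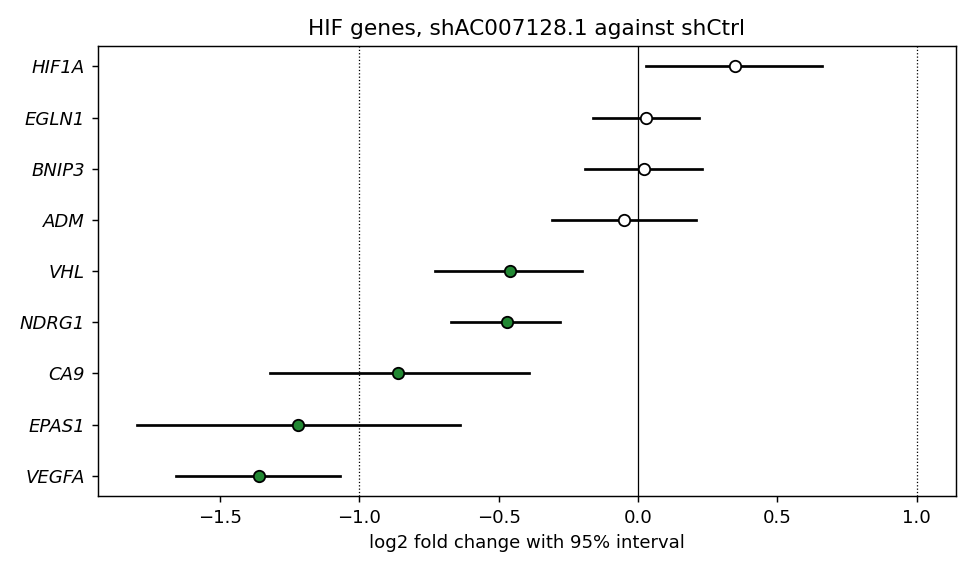
Log2 fold change of shAC007128.1 against shCtrl (3 samples each, horizontal axis) for the 9 genes tested, with 95% intervals as lines; filled points have an adjusted p of at most 0.05 and dotted lines mark a 2-fold change. VEGFA at -1.36 was the lowest, and the intervals of EGLN1, BNIP3 and ADM covered 0 within a 2-fold change.

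The targets of HIF on the list were lower or near the control according to the gene. CA9 (ENSG00000107159, chromosome 9, 35673928 to 35681159, plus strand) encodes carbonic anhydrase IX, a surface enzyme that helps hypoxic tumour cells to control pH. Its level was 15.8, 11.4 and 12.3 CPM in shCtrl replicates 1, 2 and 3 and 8.18, 7.94 and 5.64 CPM in shAC007128.1 replicates 1, 2 and 3. All shAC007128.1 samples were below all shCtrl samples, with shCtrl replicate 1 the highest. CA9 fell by 0.86 on the log2 scale (standard error 0.20, 95% interval -1.32 to -0.39, edgeR adjusted p = 0.0117). Leaving out 1 sample at a time gave log2 fold changes from -0.96 to -0.71. CA9 shares 571 of its 1598 exonic bases with ARHGEF39 on the opposite strand, so its count is uncertain. ARHGEF39 was at 10.9 to 12.2 CPM in shCtrl and at 12.4 to 12.95 CPM in shAC007128.1, a log2 fold change of 0.13 (edgeR adjusted p = 0.385), so it did not share the fall of CA9. The related carbonic anhydrase gene CA12 had at most 6 counts in any sample and was not tested.

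VEGFA (ENSG00000112715, chromosome 6, 43770184 to 43786487, plus strand) encodes the main secreted growth factor for blood vessels. It read 123, 113 and 105.5 CPM in shCtrl replicates 1, 2 and 3 and 52.0, 41.8 and 39.1 CPM in shAC007128.1 replicates 1, 2 and 3. The gap between the groups was wider than the range within either. VEGFA was 2.57-fold lower, with a log2 fold change of -1.36 (standard error 0.13, 95% interval -1.66 to -1.07, edgeR adjusted p = 0.000222). Over the alternatives the log2 fold change stayed between -1.49 and -1.29 and the adjusted p was at most 0.00187. The transcripts whose log2 CPM followed VEGFA most closely over the 6 samples were MAP2K3 (Pearson r = 0.9993), KNOP1 (r = 0.9991) and NCOA5 (r = 0.9986). They were lower too, with log2 fold changes of -0.77, -0.54 and -0.90, and 184 of 12434 genes compared had an r of at least 0.99. Such values are a description, since the difference between the groups makes up much of the correlation.

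ADM (ENSG00000148926, chromosome 11, 10305073 to 10307397, plus strand) encodes adrenomedullin, a secreted peptide that widens vessels. It read 35.4, 34.7 and 28.2 CPM in shCtrl replicates 1, 2 and 3 and 31.1, 32.4 and 31.5 CPM in shAC007128.1 replicates 1, 2 and 3. The shAC007128.1 samples lay inside the range of shCtrl, of which replicate 3 was the lowest. The log2 fold change was -0.05 (standard error 0.11, 95% interval -0.31 to 0.21, edgeR adjusted p = 0.748). ADM and VEGFA are both secreted HIF targets whose intervals do not meet here, although the difference between them was not tested.

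The list of secreted and vascular targets gave 7 genes tested of 9 listed. Of these 7, 5 fell (71.4%) and 0 rose, where 19.8% of all genes tested fell and 21.0% rose, and their median log2 fold change was -0.75. DESeq2 and limma-voom also gave 0 that rose, and 0 were higher at an unadjusted p under 0.05. STC2, a secreted glycoprotein that hypoxia induces, went from 140.4, 135 and 135 CPM to 23.5, 23.0 and 17.8 CPM, a log2 fold change of -2.68 (edgeR adjusted p = 2.24e-05). EDN1 and PDGFB, named after their values were seen, had log2 fold changes of -0.75 and -0.54 and adjusted p-values of 0.00653 and 0.00410 from edgeR. They encode the vessel-constricting peptide endothelin-1 and a growth factor for vessel-supporting cells. The groups did not overlap for any of these 3 genes. The vessel growth inhibitor and lipase regulator ANGPTL4, a further HIF target, had at most 9 counts in any sample and was not tested. The endothelial transcripts described above were at most 3.23 CPM in sum.

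NDRG1 (ENSG00000104419, chromosome 8, 133237175 to 133302022, minus strand) encodes a stress-response protein that hypoxia induces in many epithelia. It stood at 269, 254 and 255.5 CPM in shCtrl replicates 1, 2 and 3 and at 199.9, 193.5 and 168 CPM in shAC007128.1 replicates 1, 2 and 3. The highest shAC007128.1 sample was well below the lowest shCtrl sample. NDRG1 fell by 0.47 on the log2 scale (standard error 0.08, 95% interval -0.67 to -0.28, edgeR adjusted p = 0.00353), a change under 2-fold. It shares 753 exonic bases with another gene on its strand.

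BNIP3 (ENSG00000176171, chromosome 10, 131967684 to 131981967, minus strand) encodes a protein of the outer mitochondrial membrane that directs mitochondria to autophagy. Its levels were 20.9, 22.7 and 21.8 CPM in shCtrl replicates 1, 2 and 3 and 22.3, 22.0 and 21.9 CPM in shAC007128.1 replicates 1, 2 and 3. The shAC007128.1 samples lay inside the shCtrl range and very close together. The log2 fold change was 0.02 (standard error 0.09, 95% interval -0.19 to 0.23, edgeR adjusted p = 0.896), and its sign changed with the scaling. Its pseudogene BNIP3P1 had at most 4 counts in any sample. BNIP3L, a paralog with a like role in mitophagy, instead rose from 79.8, 72.3 and 81.6 CPM to 143, 138.5 and 149.8 CPM, a log2 fold change of 0.88 (edgeR adjusted p = 0.000181). DDIT4, an inhibitor of mTORC1 under stress, fell from 819.7, 793 and 784 CPM to 282, 268 and 193 CPM, a log2 fold change of -1.69 (edgeR adjusted p = 0.000140).

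**Figure D4:**
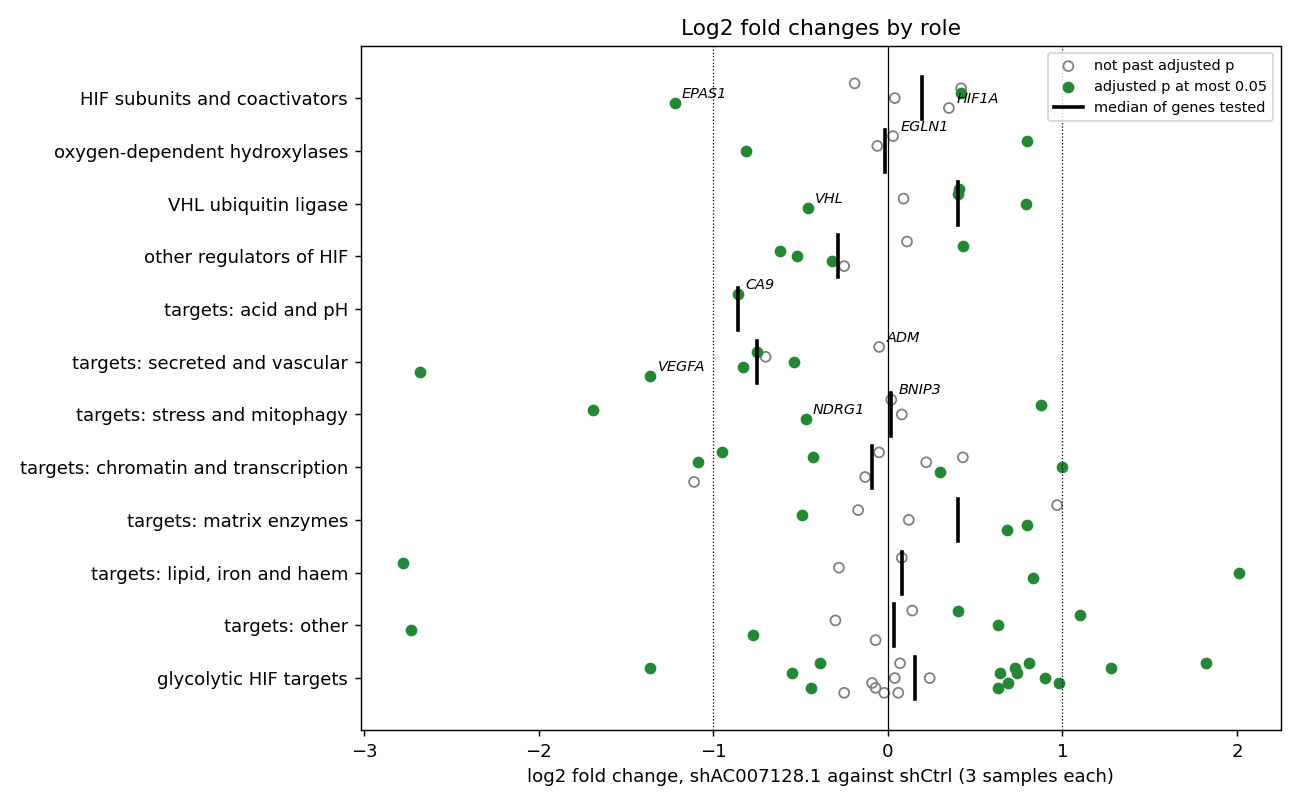
Log2 fold change of shAC007128.1 against shCtrl (3 samples each, horizontal axis) for each tested gene of the HIF regulator and target lists, 1 row per role; green points have an adjusted p of at most 0.05, open points do not, short bars are medians, dotted lines mark a 2-fold change, and the 9 tested genes of the list of 10 are named. Secreted and vascular targets lay at or below 0 with a median of -0.75, while glycolytic targets had a median of 0.15.

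The wider set of HIF targets outside glycolysis moved in both directions. Of 42 tested of 48 listed, which include CA9, VEGFA, ADM, NDRG1 and BNIP3, 15 fell (35.7%) and 10 rose (23.8%), where 19.8% of all genes tested fell and 21.0% rose, so the share that rose was near that of all genes. Called were 6 lower and 2 higher, where 10.1% and 5.57% of all genes were, and the median log2 fold change was -0.10. TFRC, the transferrin receptor for iron uptake, rose most, from 140.8, 146 and 143 CPM to 542, 563.5 and 626 CPM, a log2 fold change of 2.01 (edgeR adjusted p = 1.6e-05). HMOX1, which breaks down haem and releases iron, went the other way, from 70.3, 64.2 and 63.7 CPM to 9.87, 11.4 and 7.69 CPM, a log2 fold change of -2.78 (edgeR adjusted p = 3.62e-05). Each gene's groups were far apart, so 2 targets that handle iron differed in direction. CCNG2, a cyclin linked to growth arrest, had a log2 fold change of 1.10, the histone demethylase gene KDM3A of 0.995, just under the limit for a call, and the lipoprotein receptor gene VLDLR of 0.83, each past the adjusted p. Without shAC007128.1 replicate 2, 4 of these targets were called higher. PPFIA4, at a log2 fold change of -2.73 (edgeR adjusted p = 0.0406), had only 25 to 47 counts in shCtrl and 0 to 8 in shAC007128.1. Its call ended without any 1 of the shCtrl samples or shAC007128.1 replicate 1, with an edgeR adjusted p of up to 0.131. The log2 fold changes were then -2.92 to -2.56. Omitting the filter (edgeR adjusted p = 0.0713 at -2.78) and the replicate block (edgeR adjusted p = 0.086 at -2.94) ended it too. The call held without shAC007128.1 replicate 2, at -2.16, and without shAC007128.1 replicate 3, at -3.67, so its size is uncertain.

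Glycolytic targets of HIF are given for comparison. Of 22 tested, 10 rose (45.5%) and 4 fell (18.2%), where 21.0% of all genes rose and 19.8% fell, so the share that fell was near that of all genes. Their median log2 fold change was 0.15, with 2 called higher and 1 lower, where 5.57% and 10.1% of all genes were. Their summed level was 9391, 8849 and 8599 CPM in shCtrl and 14660, 13890 and 13580 CPM in shAC007128.1, with GAPDH the most abundant. PFKP, which commits sugar to glycolysis, had a log2 fold change of 1.82 and the mutase gene PGAM1 of 1.28. PFKFB4, PKM and ALDOA followed at 0.98, 0.90 and 0.81. PGAM1 and ALDOA have near-identical or overlapping copies, so their counts are uncertain. The 4 that fell were ALDOC at -1.36, PDK1 at -0.55, SLC2A1 at -0.44 and HK2 at -0.39. ALDOC is an aldolase, PDK1 inhibits pyruvate dehydrogenase, SLC2A1 carries glucose into the cell, and HK2 traps it there. Whether the glycolytic and other targets differ as lists was not tested.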

How the data were processed

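RNA from 3 shCtrl and 3 shAC007128.1 samples of KYSE150 cells was sequenced. The table deposited by the authors holds estimated counts for each Ensembl gene, not normalized and already whole numbers. The paper names TopHat for mapping to hg38 and Cufflinks for FPKM. The submitters' processing notes list CASAVA 1.8 and TopHat2 2.0.6, which is not the TopHat version that the paper gives. The labels also list a mouse genome build beside GRCh38. The counting program, annotation and use of strand are not given in the sources used here, so reads of overlapping genes cannot be told apart. Low values pile up at multiples of 4.

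Labels gave the groups, and every column was matched to a sample (0 unmatched). Genes passing edgeR's filterByExpr were scaled by TMM and tested with glmQLFit and glmQLFTest (edgeR 4.0.16, R 4.3.3), with Benjamini-Hochberg adjustment over all 19254 genes. Each standard error was derived as the size of the fold change (log2) over the square root of F. Depths were 55764405 to 78610457 counts per sample, and floors cover counting error only. Positions, lengths and shared exonic bases came from GENCODE 44, which holds 89.9% of the identifiers. Levels were compared between genes per kb of the canonical transcript. The ratio test used scipy 1.17.1, and log2 CPM used a prior count of 2. The fit was tested on simulated counts.

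The alternatives were DESeq2 1.42.0, limma-voom (limma 3.58.1), DESeq2's size factors, a replicate block, scaling by library size only, omitting the filter, a minimum of 10 counts per sample, counts divided by 4 and each sample left out. Thinning to the smallest total was chosen after seeing the data. The genes and lists were chosen with earlier results of these data known. Genes named are AC007128.1, the list of 10, the hydroxylases and ligase subunits, the 5 largest rises and 5 largest falls past the adjusted p in each of the regulator, non-glycolytic and glycolytic lists, and the 3 genes (mean log2 CPM 1 or more) most correlated with VEGFA, which fell most among the list of 10. Some genes of the lists are not reported here. EDN1, PDGFB and ARNT were named after their values were seen. The rest give the cell type, overlaps or pseudogenes, the most abundant gene of a list, or genes not tested.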

Additional observations from a re-analysis of the deposited data

How the results depend on the processing

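Of the 9 genes tested from the list of 10, 5 (HIF1A, EPAS1, CA9, VEGFA and NDRG1) kept their direction and their side of the adjusted p threshold in all 15 alternatives. VHL no longer passed the adjusted p without shCtrl replicate 1 (edgeR adjusted p = 0.0548), at a log2 fold change of -0.44 against -0.46. The values near 0 changed sign without passing the threshold. BNIP3 was at -0.00902 with DESeq2, -0.0572 when scaled by library size only, -0.0264 without the filter, -0.0165 under a minimum of 10 counts per sample and -0.00398 once counts were divided by 4. Leaving out each sample in turn gave -0.0148 to 0.0416 for BNIP3, -0.00564 to 0.0744 for EGLN1, -0.151 to 0.00577 for ADM and -0.00962 to 0.207 for ELOC. Under 3 of these settings EGLN1 changed sign too, at -0.043 by library size, -0.0109 without the filter and -0.00163 under the minimum. Across these fits the number of the 9 genes called lower ranged from 1 to 2, of regulators called lower from 0 to 1, and of non-glycolytic targets called higher from 2 to 4. The lower ends of the first 2 ranges came without shCtrl replicate 1, where EPAS1 was under the limit on fold change, and the 4 came without shAC007128.1 replicate 2. Non-glycolytic targets called lower went from 6 to 7 when scaled by library size only. They went to 5 without the filter, under the minimum of 10 counts, with the replicate block and with counts divided by 4. PPFIA4, 1 of the 6, was tested in only 13 of the 15 alternatives. The cause of the other changes was not tested. With the replicate block, 977 genes were called higher and 1692 lower over all genes, and EPAS1 had a log2 fold change of -1.15 and VHL of -0.47 (edgeR adjusted p = 0.0267). It changed no call among the 9, while CUL2 (edgeR adjusted p = 0.0638) and PPFIA4 (edgeR adjusted p = 0.086) no longer passed with it, at log2 fold changes of 0.41 and -2.94 that had not shrunk. Same-numbered samples deviated from their group means with correlations of 0.031, -0.025 and -0.030, so no strong shared deviation was seen. Such values cannot show whether same-numbered samples were handled together. Library size only moved the median of all genes by -0.074, the largest shift of the alternatives. Thinning every library to the smallest total left 2 of the 9 called lower. Depth limits EGLN3, and 1 hairpin with 1 control limits what the groups stand for.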
